A study of Mus musculus with 2 samples.

Results

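The 35 genes described here are immediate early genes, transcribed within minutes of a stimulus without new protein synthesis, and inducible heat shock genes. They were taken by gene symbol from a fixed list, 30 immediate early and 5 heat shock genes of the 32285 genes in the matrix. The rule itself uses no measured value, although the genes were chosen with earlier results of these data known. The study profiled single cells of dorsal skin from WT male mice aged 9 or 108 weeks, with 1 droplet library per age and 2 mice pooled in each. The protocol given for both libraries was digestion of the excised skin for 1 hour with collagenase-A, Dispase-II and DNaseI, antibody staining, and sorting for F4/80 with high MHC class II. No source used here names the mouse strain. The matrix marks the libraries only by a barcode suffix, 1 or 2, that no source ties to an age, so that no comparison of ages was possible and values are given for the libraries suffix 1 and suffix 2, always in this order. Neither library has an undigested control, and a response to the dissociation of the tissue cannot be told apart from expression in the intact skin.

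Immediate early genes encode mainly transcription factors and feedback regulators. The products of the Fos and Jun families pair to form the AP-1 factor, those of the Egr, Klf and Nr4a families bind DNA as zinc finger proteins or nuclear receptors, and the Dusp phosphatases switch off the MAP kinases that induce the set. Heat shock genes encode chaperones that refold damaged proteins and are induced through the factor HSF1. Both programs are known to be switched on while tissue is cut, warmed and digested, and also by wounding and inflammation in the living tissue.

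The matrix held 5257 barcodes with 56204601 UMIs, counts of distinct RNA molecules captured at their 3′ ends. Of these barcodes, 3797 cells had 500 or more genes, 1000 or more UMIs and no more than 10% mitochondrial UMIs, 2396 of suffix 1 and 1401 of suffix 2, with medians of 10761 and 11196 UMIs. No barcode sequence was shared between the libraries among kept cells. Cells were grouped into 27 clusters with the 35 genes left out, and named by marker lists. Although the sort was for macrophages, 2049 kept cells lay in clusters led by macrophage, monocyte or dendritic cell markers, here called the macrophage compartment, and 826 were fibroblast-like. A list of 10 macrophage markers summed to 132 and 141 UMIs per 10000 in the macrophage compartment against 2.34 and 2.24 in fibroblast-like cells, and 7 fibroblast markers to 4.003 and 1.23 against 1137 and 469. The other groups were endothelial-like (294 cells), Schwann-like (126), skeletal muscle-like (142), keratinocyte-like (68), lymphatic endothelial-like (56), T-like (34) and mast-like (32) cells, and 170 cells of a cluster with mural and endothelial markers that stayed unnamed. Levels below are UMIs of a gene, or of the summed genes, per 10000 UMIs of all genes in a cell group, and are not divided by gene length. Intervals are exact 95% intervals of counting error only. With 1 library per age and cells that are not replicates, no p-value was computed. Values of the 2 libraries stand side by side for the genes and sums the results turn on, and other values are over both libraries, whose spread they do not show.

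Promoter sequence from RefSeq (GRCm38.p6) was at hand for 31 of the 35 genes, all but Egr1, Ier2, Fosl1 and Egr3. The letters of motifs tied to these 2 programs were searched on both strands of the 250 bases before each start site. The cAMP response element TGACGTCA, known as a site of CREB and ATF factors, stood before 3 of the 31 genes (Btg2, Dusp1 and Maff), against 1.77% of the 27025 genes with a window. Its core TGACG, which the full element contains, stood before 16 of the 31 and before 19.8% of all genes. A CArG box, the site of serum response factor, was matched before Dusp5, Egr2 and Zfp36 and before 1.62% of all genes. Inverted heat shock units, GAANNTTC or TTCNNGAA, stood before 4 of the 5 heat shock genes (Hspa1a, Hspa1b, Hspb1 and Hsph1), before Egr2, Fosl2 and Jun, and before 14.5% of all genes. A match of letters describes these windows and does not show that a factor binds. Bases farther from the start site were not searched. A window without a match, as that of Fos for the CArG box, thus does not show that the gene lacks the site. Sequences are shown 5′ to 3′ on the strand of the gene, ending at the base before the start site, for genes that recur below. Fos (chr12:85473640-85473889, plus strand) carries 2 core sites, Nr4a2 (chr2:57124004-57124253, minus strand) 4 core sites and Btg2 (chr1:134079156-134079405, minus strand) the full element, all in capitals.
Fos: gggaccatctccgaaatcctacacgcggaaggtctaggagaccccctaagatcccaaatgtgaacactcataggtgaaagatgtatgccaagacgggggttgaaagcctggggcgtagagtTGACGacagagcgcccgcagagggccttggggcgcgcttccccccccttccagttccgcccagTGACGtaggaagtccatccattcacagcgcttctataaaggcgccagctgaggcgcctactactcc
Nr4a2: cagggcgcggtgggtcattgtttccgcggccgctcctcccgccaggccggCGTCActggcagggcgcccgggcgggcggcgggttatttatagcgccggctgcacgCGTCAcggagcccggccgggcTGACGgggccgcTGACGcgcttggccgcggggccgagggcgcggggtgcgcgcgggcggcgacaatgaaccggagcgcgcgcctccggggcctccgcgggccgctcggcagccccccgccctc
Btg2: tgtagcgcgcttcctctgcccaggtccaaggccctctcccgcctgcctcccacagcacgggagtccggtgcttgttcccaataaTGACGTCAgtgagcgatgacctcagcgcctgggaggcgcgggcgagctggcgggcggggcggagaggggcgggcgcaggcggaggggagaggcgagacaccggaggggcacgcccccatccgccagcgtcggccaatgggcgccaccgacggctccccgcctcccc

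Hspa1a and Hspa1b, which encode the inducible Hsp70 chaperone, are shown because they lie next to each other and are nearly identical. Their windows (chr17:34972157-34972406 and chr17:34959239-34959488, both minus strand) differ at 3 of 250 bases, C44T, T47C and T249G, with the base of Hspa1a first, the position counted from 1 at the 5′ end, and the base of Hspa1b last. The capitals mark the inverted heat shock unit, 97 to 104 bases before the start site in both.
Hspa1a: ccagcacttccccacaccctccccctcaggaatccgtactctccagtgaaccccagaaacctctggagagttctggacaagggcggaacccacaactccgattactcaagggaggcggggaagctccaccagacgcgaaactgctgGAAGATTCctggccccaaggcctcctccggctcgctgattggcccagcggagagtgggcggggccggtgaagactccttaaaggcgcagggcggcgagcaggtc
Hspa1b: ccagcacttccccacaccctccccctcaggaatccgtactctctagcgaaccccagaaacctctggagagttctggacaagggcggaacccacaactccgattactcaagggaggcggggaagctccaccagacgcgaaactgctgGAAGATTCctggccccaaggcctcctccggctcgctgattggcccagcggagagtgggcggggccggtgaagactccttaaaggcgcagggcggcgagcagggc
Reads of the 2 genes can be hard to tell apart, and no source used here says how the counting treated reads that fit both, so that their separate levels are uncertain. In GENCODE vM21, 8 of the 35 genes (Fosl1, Jun, Junb, Jund, Dusp1, Dusp5, Zfp36 and Hspa1a) overlap another gene of the matrix. Whether the counting used strand is not stated, which leaves their levels less certain too.

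The 35 genes took up 2.19% of all UMIs of the kept cells, a summed level of 219 per 10000, of which the 30 immediate early genes gave 211 and the 5 heat shock genes 8.68. The sum was lower in the macrophage compartment than in most other groups, and lowest in T-like cells. It stood at 157 (95% interval 157 to 158) in the macrophage compartment (158 and 156 in the libraries suffix 1 and suffix 2) and at 255 (95% interval 254 to 256) in fibroblast-like cells (272 and 236). These groups did not overlap between libraries, and the macrophage over fibroblast ratio of the sum was 0.5804 and 0.661. Endothelial-like cells were at 285 and 319, the unnamed mural and endothelial cluster at 342 and 398, and lymphatic endothelial-like cells at 430.0 and 284. Keratinocyte-like cells held 327 and 317 and Schwann-like cells 315 and 316, nearly equal in both libraries. Mast-like cells had the highest level over both libraries, 423 (367 and 489.7), from 12 and 20 cells with a median of 3536 UMIs. The 7 fibroblast markers summed to 4.94 and 65.0 UMIs per 10000 in mast-like cells and to 65.8 and 26.7 in Schwann-like cells. The part of this in the levels of the 2 groups, and in their library differences, was not tested, here or for single genes. T-like cells were at 129 and 107, below every other group but the muscle cells of suffix 1. Skeletal muscle-like cells differed most between libraries, 95.1 and 209, and were made of 2 clusters: 90 cells with contractile fibre genes at 42.0 and 52 cells marked by Myod1 at 218. Endothelial-like, keratinocyte-like, Schwann-like and lymphatic endothelial-like cells changed order from one library to the other.

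**Figure D1:**
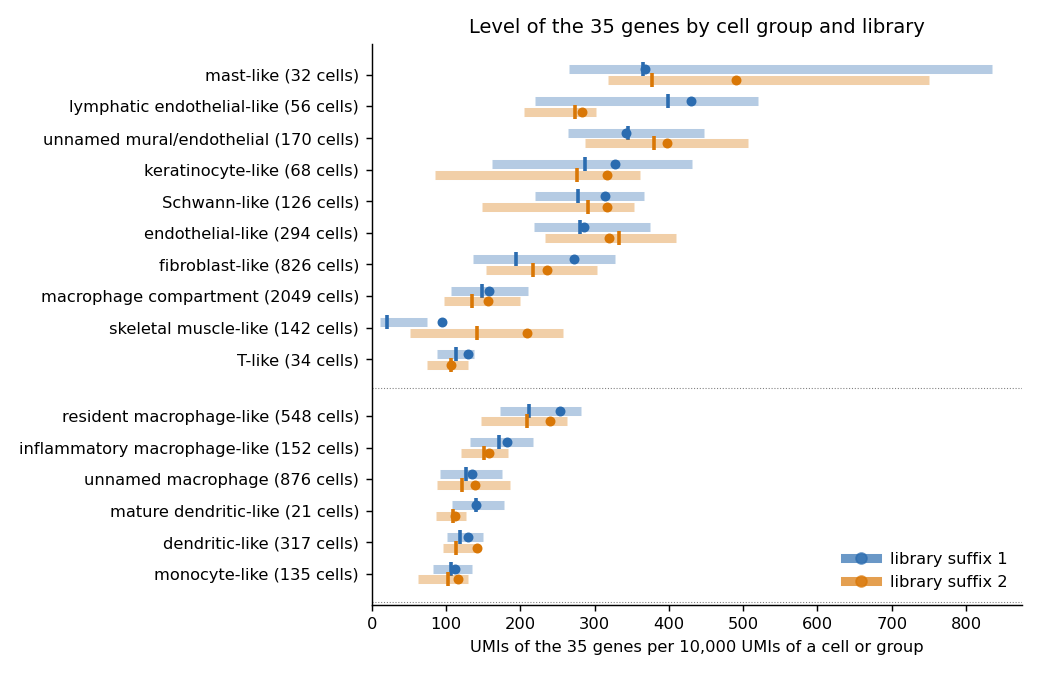
Summed level of the 35 genes (x axis, UMIs per 10000 UMIs) in each cell group (y axis, with cell numbers), for library suffix 1 in blue and suffix 2 in orange. Points are the level of the group's summed UMIs, bars run from the 25th to the 75th percentile of cells and ticks mark the median cell; the macrophage compartment lies below fibroblast-like cells in both libraries, and resident macrophage-like cells stand highest among its classes.

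Within the macrophage compartment, the resident macrophage-like cells, led by Ccl8, C1qa, C1qb, Pf4 and F13a1, held the highest sum, 253 and 241 in 444 and 104 cells. Inflammatory macrophage-like cells were at 181 and 158, dendritic-like cells at 129.5 and 141, mature dendritic-like cells at 141 and 112 and monocyte-like cells at 112 and 116. The dendritic-like class joined 2 unlike clusters, 1 of 231 cells at 113 and 116 and 1 of 86 cells at 187 and 211. A further 876 cells in 5 clusters without a name were at 135 and 139. The resident class stood 1.87 and 1.72 times as high as the rest of the compartment. Its level came close to that of fibroblast-like cells, with a fibroblast over resident ratio of 1.08 and 0.982 that changed side between the libraries. Cells differed in depth, with medians of 8775 UMIs and 5.82% mitochondrial UMIs in the resident class and 12884 UMIs and 3.71% in the unnamed class. After each cell was thinned to 2000 UMIs, the median cell held 205 and 205 in the resident class against 125 and 120.0 in the unnamed class, 120.0 and 115 in dendritic-like cells, and 195 and 225 in fibroblast-like cells. Thinning left out 27 resident, 33 unnamed, 2 dendritic-like and 47 fibroblast-like cells with fewer UMIs.

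The AP-1 genes made up the largest share of the set. Jund, the steadiest Jun family gene across groups, was the most abundant of the 35 at 24.4 over all kept cells. It was at 22.6 and 17.9 in the macrophage compartment, 29.04 and 27.6 in fibroblast-like, 29.1 and 29.2 in endothelial-like, 33.5 and 33.99 in the unnamed mural and endothelial cluster, 30.3 and 17.9 in lymphatic endothelial-like, 17.3 and 18.2 in keratinocyte-like, 28.7 and 30.6 in Schwann-like, 16.2 and 29.2 in skeletal muscle-like, 30.4 and 39.3 in mast-like, and 18.3 and 18.6 in T-like cells. Its lowest and highest group levels lay less than 2-fold apart over both libraries, and in the macrophage compartment it was highest in resident macrophage-like cells, 45.95 and 34.97, against 11.97 and 7.92 in monocyte-like cells. Jun, by contrast, varied most among AP-1 genes found in every group. Its levels were 2.12 and 2.15 in the macrophage compartment, 7.95 and 6.45 in fibroblast-like, 12.1 and 12.4 in endothelial-like, 18.6 and 20.4 in the unnamed mural and endothelial cluster, 28.8 and 13.9 in lymphatic endothelial-like, 26.5 and 19.1 in keratinocyte-like, 18.2 and 18.99 in Schwann-like, 2.78 and 4.95 in skeletal muscle-like, 57.3 and 56.5 in mast-like, and 1.52 and 1.83 in T-like cells. Mast-like, keratinocyte-like and Schwann-like cells were high and the macrophage compartment and T-like cells low, with no overlap between the libraries of these groups. Fosl1, a Fos family gene known from migrating keratinocytes, was lower throughout, at 0.269 and 0.323 in the macrophage compartment, 2.54 and 2.003 in fibroblast-like, 0.829 and 0.895 in endothelial-like, 0.809 and 1.18 in the unnamed mural and endothelial cluster, 0.416 and 0.899 in lymphatic endothelial-like, 2.35 and 3.86 in keratinocyte-like, 0.399 and 0.298 in Schwann-like, 1.82 and 2.28 in skeletal muscle-like, 0 and 0.254 in mast-like, and 0 and 0 in T-like cells. In T-like cells no UMI of Fosl1 was counted among 310596, which allows up to 0.0966 per 10000, so that keratinocyte-like cells stood at least 30.2-fold higher (a limit of 3 counts over the group).

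Fos itself, whose promoter is shown above, was highest over both libraries in keratinocyte-like cells (52.2 and 41.6), followed by Schwann-like cells (40.9 and 45.1), which stood above them in suffix 2, and lymphatic endothelial-like cells (46.7 and 28.1), and lowest over both libraries in the macrophage compartment (7.25 and 8.15). The other AP-1 genes were Junb (21.1 over all kept cells, highest at 38.4 in the unnamed mural and endothelial cluster and lowest at 12.8 in skeletal muscle-like cells), Fosb (13.5 over all kept cells, highest at 30.3 in mast-like and lowest at 2.25 in T-like cells), Atf3 (6.34 over all kept cells, highest at 22.2 in keratinocyte-like and lowest at 1.19 in T-like cells), Fosl2 (3.28 over all kept cells, highest at 5.35 in mast-like and lowest at 1.53 in skeletal muscle-like cells) and Maff (1.58 over all kept cells, highest at 5.597 in lymphatic endothelial-like and lowest at 0.322 in T-like cells). Atf3 is a stress-induced AP-1 partner and Maff a small Maf protein. For Fosb and Junb the resident macrophage-like cells reached 19.5 and 15.5 and 28.96 and 23.1, against 2.98 and 3.14 and 13.5 and 14.3 in dendritic-like cells. For both genes the 2 libraries of the resident class lay above both libraries of the dendritic class.

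Among the EGR and KLF zinc finger genes, Klf4, which marks differentiating epidermis and is also a myeloid factor, was the most abundant. It stood at 5.802 and 6.24 in the macrophage compartment, 19.3 and 15.4 in fibroblast-like, 8.14 and 8.16 in endothelial-like, 6.47 and 7.34 in the unnamed mural and endothelial cluster, 33.7 and 13.8 in lymphatic endothelial-like, 17.5 and 19.3 in keratinocyte-like, 4.099 and 7.84 in Schwann-like, 4.64 and 9.32 in skeletal muscle-like, 9.44 and 8.902 in mast-like, and 2.28 and 2.75 in T-like cells. Lymphatic endothelial-like cells of suffix 1 were highest, and fibroblast-like and keratinocyte-like cells were high in both libraries. Egr3, rare over all cells (0.621), varied most. Its levels were 0.134 and 0.173 in the macrophage compartment, 1.08 and 0.234 in fibroblast-like, 1.097 and 1.09 in endothelial-like, 1.02 and 1.102 in the unnamed mural and endothelial cluster, 0.471 and 0.2998 in lymphatic endothelial-like, 2.55 and 3.503 in keratinocyte-like, 2.13 and 2.09 in Schwann-like, 0.513 and 0.289 in skeletal muscle-like, 8.91 and 10.2 in mast-like, and 0.127 and 0 in T-like cells. Only 2 UMIs were counted in T-like cells, and mast-like cells stood above all other groups in both libraries. Egr1, its more abundant relative, was also highest in mast-like cells, 42.4 and 54.4, and was 1.67 and 2.04 in the macrophage compartment against 11.0 and 12.1 in fibroblast-like cells. The remaining genes of the group were Klf6 (8.53 over all kept cells, highest at 40.6 in mast-like and lowest at 0.966 in skeletal muscle-like cells), Klf2 (3.198 over all kept cells, highest at 13.1 in lymphatic endothelial-like and lowest at 0.966 in skeletal muscle-like cells) and Egr2 (0.340 over all kept cells, highest at 2.40 in Schwann-like and lowest at 0.0451 in lymphatic endothelial-like cells). Klf2 is known as a flow-induced endothelial gene and Egr2 as a Schwann cell and macrophage factor.

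The NR4A genes encode orphan nuclear receptors, and their members went apart between cell groups. Nr4a1 (Nur77) was at 1.15 and 1.09 in the macrophage compartment, 13.9 and 6.51 in fibroblast-like, 2.26 and 2.60 in endothelial-like, 4.83 and 5.83 in the unnamed mural and endothelial cluster, 2.696 and 0.989 in lymphatic endothelial-like, 6.14 and 17.2 in keratinocyte-like, 10.3 and 8.55 in Schwann-like, 0.553 and 1.25 in skeletal muscle-like, 17.6 and 15.9 in mast-like, and 2.16 and 1.24 in T-like cells. Mast-like cells were high in both libraries and the macrophage compartment low, while fibroblast-like and keratinocyte-like cells differed more than 2-fold between the libraries. Nr4a3 (Nor1) was at 3.57 and 4.76 in the macrophage compartment, 2.06 and 2.32 in fibroblast-like, 1.62 and 0.765 in endothelial-like, 1.76 and 1.91 in the unnamed mural and endothelial cluster, 0.145 and 0.2998 in lymphatic endothelial-like, 0.721 and 1.31 in keratinocyte-like, 1.99 and 1.93 in Schwann-like, 0.415 and 1.12 in skeletal muscle-like, 4.51 and 12.8 in mast-like, and 2.41 and 1.83 in T-like cells. Here lymphatic endothelial-like cells were lowest, and the macrophage compartment lay above fibroblast-like cells in both libraries. Inside the macrophage compartment Nr4a3 was at 0.483 and 0.582 in resident macrophage-like, 2.32 and 2.104 in inflammatory macrophage-like, 9.96 and 12.6 in dendritic-like, 17.04 and 28.3 in mature dendritic-like, 0.561 and 1.45 in monocyte-like, and 2.73 and 2.44 in the unnamed cells. Both dendritic classes lay above all other macrophage classes in both libraries, although the mature dendritic-like class had only 16 and 5 cells. Nr4a2 (Nurr1), with 4 core sites in the window shown above, was likewise higher in dendritic-like cells (4.82 and 6.25) than in resident macrophage-like cells (1.02 and 1.16), and was highest over all groups in Schwann-like cells (10.3 and 14.2). The 27 clusters share 2 libraries and differ in depth and mitochondrial share. Across them the level of Nr4a3 had a rank correlation of -0.21 with the summed level of the other 34 genes. Nr4a2 had one of 0.08, whereas Nr4a1 had 0.79. Dusp5 (-0.46) and Dusp2 (0.04) were also low in this measure, and Egr1 (0.89) and Jun (0.88) were highest.

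Of the dual specificity phosphatases, Dusp1, an early brake on the p38 and JNK kinases, was the most abundant. It was at 15.6 and 13.4 in the macrophage compartment, 18.7 and 14.8 in fibroblast-like, 12.5 and 9.07 in endothelial-like, 9.88 and 9.16 in the unnamed mural and endothelial cluster, 16.8 and 13.97 in lymphatic endothelial-like, 9.82 and 9.15 in keratinocyte-like, 6.05 and 4.56 in Schwann-like, 1.62 and 6.297 in skeletal muscle-like, 15.2 and 27.3 in mast-like, and 3.61 and 3.34 in T-like cells. The macrophage compartment and fibroblast-like cells were close to each other, and in resident macrophage-like cells Dusp1 reached 25.1 and 18.8. Dusp2, a nuclear phosphatase of lymphocytes and other cells, had a sharper pattern, at 0.7805 and 0.689 in the macrophage compartment, 0.787 and 0.0653 in fibroblast-like, 2.42 and 2.06 in endothelial-like, 1.68 and 1.75 in the unnamed mural and endothelial cluster, 18.2 and 10.4 in lymphatic endothelial-like, 0.201 and 0.0992 in keratinocyte-like, 0 and 0 in Schwann-like, 0.0395 and 0.0321 in skeletal muscle-like, 0.536 and 0.254 in mast-like, and 2.54 and 0.8502 in T-like cells. Lymphatic endothelial-like cells stood apart in both libraries, and no UMI was found in Schwann-like cells among 887331, which allows up to 0.0338 per 10000 and puts the lymphatic level at least 451-fold higher. Dusp5, a phosphatase of ERK, was at 1.64 over all kept cells, from 0.645 in keratinocyte-like to 3.06 in T-like cells. Within the macrophage compartment it was highest in mature dendritic-like cells, at 4.22.

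**Figure D2:**
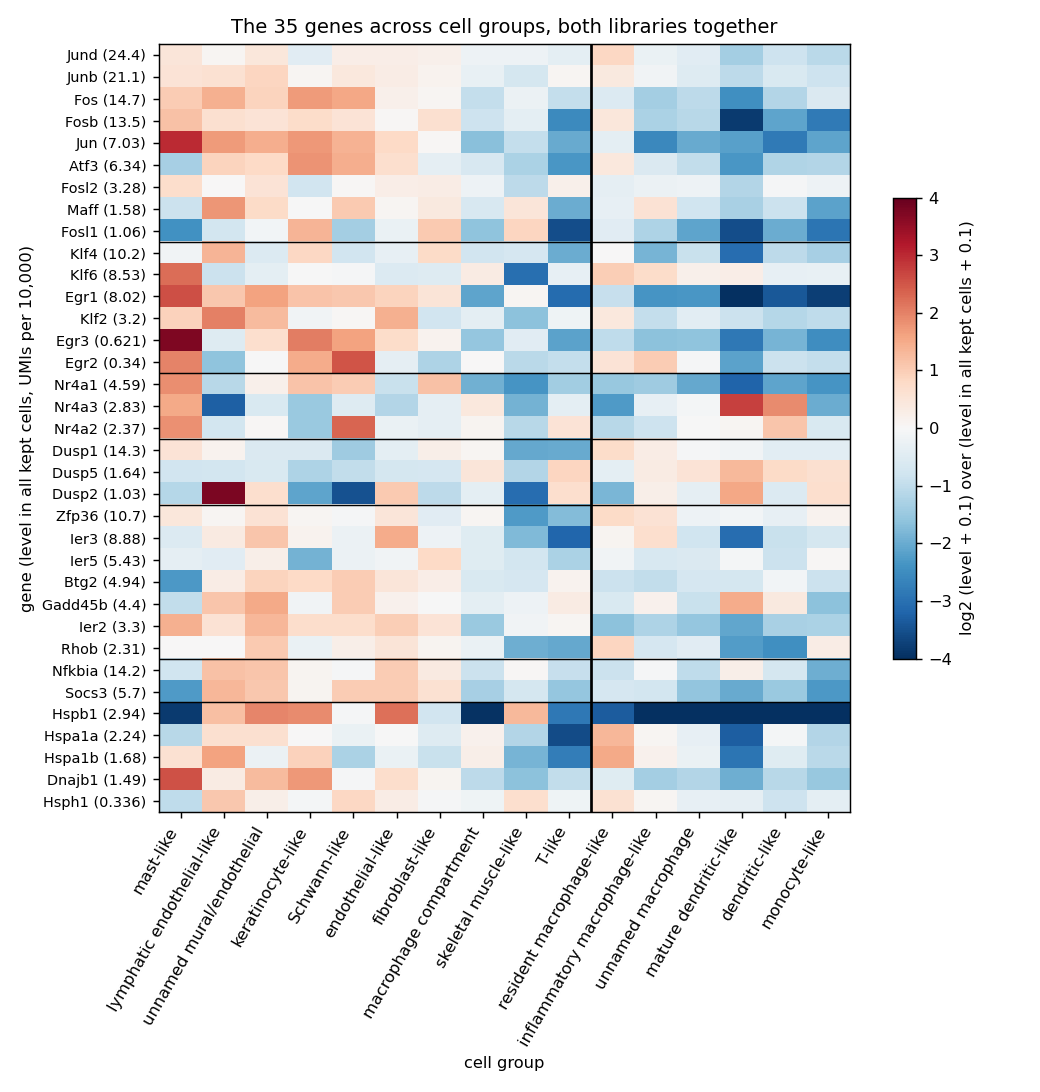
Level of each of the 35 genes (rows, ordered by role, with the level over all kept cells in parentheses) in each cell group (columns, the macrophage classes right of the heavy line), as log2 of level plus 0.1 over the level in all kept cells plus 0.1, both libraries together, with colours ending at 4 in both directions. Nr4a3 is red in the dendritic classes, and Hspb1 is at the blue end in all macrophage classes but the resident one.

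Genes of mRNA and growth control were led by Zfp36, whose product tristetraprolin degrades cytokine mRNAs. It stood at 11.5 and 11.03 in the macrophage compartment, 7.02 and 8.74 in fibroblast-like, 14.6 and 15.6 in endothelial-like, 16.03 and 16.2 in the unnamed mural and endothelial cluster, 12.7 and 9.02 in lymphatic endothelial-like, 11.5 and 11.4 in keratinocyte-like, 12.6 and 8.004 in Schwann-like, 1.38 and 3.37 in skeletal muscle-like, 12.1 and 17.7 in mast-like, and 2.92 and 3.47 in T-like cells. Endothelial-like cells and the unnamed cluster were high, muscle-like and T-like cells low, and the macrophage compartment lay above fibroblast-like cells in both libraries. Ier3, a survival gene of the immediate early response, varied most in this group. Its levels were 5.88 and 7.73 in the macrophage compartment, 6.57 and 9.18 in fibroblast-like, 20.9 and 29.2 in endothelial-like, 15.8 and 23.2 in the unnamed mural and endothelial cluster, 10.4 and 13.3 in lymphatic endothelial-like, 10.4 and 8.68 in keratinocyte-like, 8.09 and 7.02 in Schwann-like, 2.23 and 3.05 in skeletal muscle-like, 4.83 and 7.38 in mast-like, and 0.571 and 1.24 in T-like cells. Endothelial-like cells were highest in both libraries. In library suffix 1 they also carried 41.3 UMIs per 10000 of 2 haemoglobin genes, against 0.40 in suffix 2. The unnamed mural and endothelial cluster carried still more in suffix 1, 130 against 0.373 in suffix 2. The part of these differences in the levels of the 2 groups was not tested, here or for other genes. The other genes were Ier5 (5.43 over all kept cells, highest at 9.599 in fibroblast-like and lowest at 1.38 in keratinocyte-like cells), Btg2 (4.94 over all kept cells, highest at 10.2 in Schwann-like and lowest at 0.931 in mast-like cells), Gadd45b (4.398 over all kept cells, highest at 12.7 in the unnamed mural and endothelial cluster and lowest at 2.15 in mast-like cells), Ier2 (3.30 over all kept cells, highest at 9.08 in mast-like and lowest at 1.12 in the macrophage compartment cells) and Rhob (2.31 over all kept cells, highest at 4.89 in the unnamed mural and endothelial cluster and lowest at 0.483 in T-like cells). Btg2 restrains cell division, Gadd45b is a stress sensor and Rhob an endosomal GTPase. Gadd45b reached 13.3 and 9.21 in mature dendritic-like cells against 2.93 and 2.58 in resident macrophage-like cells.

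Both feedback genes of NF-kB and cytokine signalling were low in the macrophage compartment. Nfkbia, which encodes the inhibitor IkBa, was at 7.55 and 8.56 in the macrophage compartment, 18.9 and 17.6 in fibroblast-like, 27.3 and 30.8 in endothelial-like, 28.3 and 32.9 in the unnamed mural and endothelial cluster, 33.6 and 29.3 in lymphatic endothelial-like, 14.8 and 16.4 in keratinocyte-like, 15.8 and 11.4 in Schwann-like, 10.8 and 20.7 in skeletal muscle-like, 6.65 and 9.92 in mast-like, and 4.44 and 10.7 in T-like cells. The vascular groups were highest, and inflammatory macrophage-like cells, at 13.4 and 14.6, exceeded resident macrophage-like cells, at 7.58 and 8.19. Socs3, the brake on STAT3 signalling, was at 2.198 and 2.33 in the macrophage compartment, 9.66 and 7.66 in fibroblast-like, 10.9 and 12.4 in endothelial-like, 12.1 and 12.2 in the unnamed mural and endothelial cluster, 12.99 and 17.3 in lymphatic endothelial-like, 7.44 and 4.01 in keratinocyte-like, 12.2 and 11.2 in Schwann-like, 1.66 and 6.39 in skeletal muscle-like, 0.536 and 1.78 in mast-like, and 2.16 and 1.57 in T-like cells. Fibroblast-like cells lay above the macrophage compartment in both libraries, and the mast-like and T-like cells were at or below the macrophage levels.

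The heat shock sum followed another order than the immediate early sum. It was 5.02 and 7.14 in the macrophage compartment, 6.42 and 5.55 in fibroblast-like, 16.2 and 24.8 in endothelial-like and 21.1 and 23.9 in keratinocyte-like cells. Endothelial-like and keratinocyte-like cells were thus high in both libraries. The macrophage over fibroblast ratio of this sum was 0.781 in suffix 1 and 1.29 in suffix 2, so that its direction changed with the library. Hspb1, the small chaperone Hsp27, was both the most abundant and the most variable heat shock gene. It stood at 0.06198 and 0.192 in the macrophage compartment, 2.21 and 1.14 in fibroblast-like, 10.8 and 17.2 in endothelial-like, 10.5 and 13.1 in the unnamed mural and endothelial cluster, 8.02 and 4.89 in lymphatic endothelial-like, 11.1 and 11.3 in keratinocyte-like, 3.70 and 1.95 in Schwann-like, 7.05 and 7.903 in skeletal muscle-like, 0.107 and 0.127 in mast-like, and 0.634 and 0 in T-like cells. Endothelial-like, keratinocyte-like, muscle-like and the unnamed mural cells were high in both libraries and the macrophage compartment near 0. In the contractile muscle cluster Hspb1 alone gave 13.4 of a heat shock sum of 13.9.

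Hspa1a and Hspa1b, the pair with nearly identical promoters, had another pattern. Over the macrophage compartment Hspa1a was at 2.25 and 3.35 and Hspa1b at 1.81 and 2.45, against 1.48 and 1.602 and 0.791 and 0.921 in fibroblast-like cells. Resident macrophage-like cells reached 4.74 and 9.19 for Hspa1a and 4.17 and 7.81 for Hspa1b, higher in suffix 2 than in suffix 1. This order did not hold in both resident clusters, where the heat shock sum was 9.57 and 34.5 in one and 11.03 and 6.95 in the other. Such sums were not particular to the resident class. A dendritic-like cluster of 86 cells was at 11.1 and 12.8, although the other dendritic-like cluster was at 2.03 and 1.35. An unnamed macrophage cluster of 134 cells was at 11.8 and 10.4, within an unnamed class at 3.85 and 4.69. Without the 5% of resident cells highest in heat shock level, the heat shock sum of the class went from 10.2 and 20.5 to 4.03 and 11.1. Lymphatic endothelial-like cells held 7.75 and 1.41 of Hspa1b. Dnajb1, the Hsp40 partner of Hsp70, was at 1.49 over all kept cells, from 0.403 in skeletal muscle-like to 9.19 in mast-like cells. Hsph1, which encodes Hsp110, was at 0.336 over all kept cells, from 0.116 in mast-like to 0.824 in lymphatic endothelial-like cells.

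In the macrophage compartment the heat shock UMIs came from few cells. The 5% of cells with the highest heat shock level, 81 of suffix 1 and 23 of suffix 2, held 61.9% and 53.97% of all heat shock UMIs of the compartment, against 17.7% and 17.8% for the highest 5% of fibroblast-like cells and 12.8% and 11.6% for endothelial-like cells. These heat shock sums differ in their genes. Over both libraries Hspb1 gave 0.0949 of 5.56 in the macrophage compartment, 1.71 of 6.02 in fibroblast-like and 13.98 of 20.5 in endothelial-like cells. The part of this in the shares was not tested. For the immediate early sum, the highest 5% of macrophage compartment cells held 11.5% and 12.6%, close to the 10.6% and 10.8% in fibroblast-like cells. The median macrophage cell held 0.804 and 1.05 heat shock UMIs per 10000. The highest single cells, however, reached 404 and 452 per 10000, against 44.4 and 57.8 among fibroblast-like cells. These cells were picked by their heat shock level after the data were seen, so that what follows describes them without a test. Their Hspa1a level was 38.7 and 62.4 and their Hspa1b level 34.3 and 48.4, against 0.744 and 1.47, and 0.458 and 0.990, in the other cells of the compartment. Hspb1 was low but also higher, 0.158 and 1.91 against 0.05798 and 0.137. They also held more of genes that did not choose them. The immediate early sum was 328 and 362 against 146 and 142 in the other cells of the compartment, and Hspa8, the constitutive Hsc70, was 38.2 and 48.1 against 16.4 and 19.9. Of the 81 and 23 cells, 35 and 14 (43.2% and 60.9%) were resident macrophage-like, against 26.9% and 21.2% of the other cells. A further 28 and 5 (34.6% and 21.7%) were of the unnamed class, against 43.2% and 44.0%, and 13 and 2 (16.0% and 8.70%) dendritic-like, against 13.6% and 22.4%. Their median depth was 8598 and 10095 UMIs, below the 10838 and 12530.0 of the other cells, and their median mitochondrial share 5.22% and 5.06% against 4.17% and 4.29%. The part of depth and mitochondrial share in this was not tested.

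Across the 27 clusters the immediate early and the heat shock level had a rank correlation of 0.71. It was 0.82 in the 25 clusters left without the muscle clusters. The Pearson correlation of the log2 levels over the 27 clusters was lower, 0.49. Clusters share both libraries and differ in depth and mitochondrial share, so that this is a description of these cells. The median mitochondrial share of a cluster had a rank correlation of 0.54 with the level of the 35 genes. With the heat shock level it was 0.45. Of the variance of the logged per-cell level of the 35 genes, 34.4% lay between clusters. In the 18 clusters with at least 20 cells in each library, the cluster levels of the 2 libraries had a rank correlation of 0.91.

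**Figure D3:**
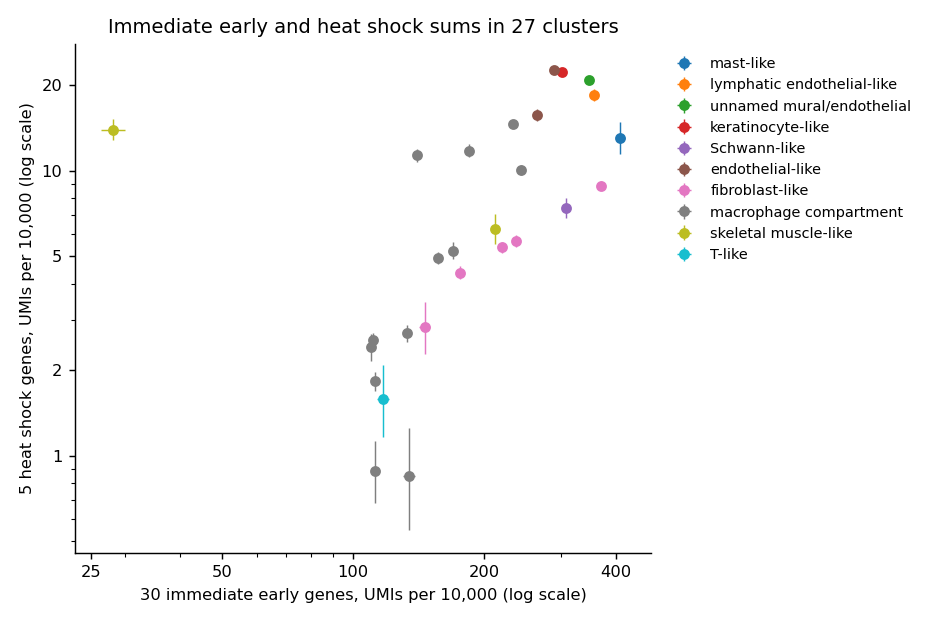
Level of the 5 heat shock genes (y axis) against that of the 30 immediate early genes (x axis), both in UMIs per 10000 on log scales, in the 27 clusters, both libraries together, with exact 95% counting intervals. Macrophage compartment clusters (grey) run from the lower left up to the 2 resident clusters, endothelial-like and keratinocyte-like clusters lie at the upper right, and the contractile muscle cluster stands alone at the left with 13.9 heat shock and 28.1 immediate early UMIs per 10000.

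The first comparison set the macrophage compartment against fibroblast-like cells, the 2 largest groups. A gene was counted as different when it had a level at least 2-fold higher, or at least 2-fold lower, in each of the 2 libraries, with at least 20 UMIs in all. By this measure 3 of the 35 genes were higher in the macrophage compartment (Egr2, Dusp5 and Hspa1b), where 15.8% of all 13725 genes tested were higher. Lower were 11 of 35 (Fosb, Fosl1, Jun, Egr1, Ier2, Ier5, Klf4, Nr4a1, Hspb1, Socs3 and Nfkbia), against a background of 23.6%, and 21 were neither. The median log2 ratio was -0.46 over the 35 genes and -0.18 over all genes tested. The share of lower genes thus lay above, and that of higher genes below, shares already large over all genes, and the difference was not tested. With each cell given to the marker list it scored highest, 5 genes in place of 11 were lower, against 19.1% of 13604 genes, a share below the background.

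Hspb1 differed most, with log2 ratios of -5.15 and -2.57 in the 2 libraries and -4.17 (-4.37 to -3.98) over both. For Nr4a1 the ratios were -3.60 and -2.58 in the 2 libraries and -3.21 (-3.27 to -3.15) over both, and for Egr1 -2.72 and -2.56 in the 2 libraries and -2.70 (-2.75 to -2.65) over both. All 3 were lower in macrophages in each library, and so was Jun, with -1.91 and -1.58 in the 2 libraries and -1.77 (-1.82 to -1.72) over both. On the other side, Egr2 had log2 ratios of 1.70 and 2.47 in the 2 libraries and 2.00 (1.72 to 2.29) over both, from levels of 0.34 and 0.36 against 0.10 and 0.065. Dusp5 had 1.27 and 1.17 in the 2 libraries and 1.23 (1.15 to 1.32) over both, and Hspa1b 1.19 and 1.41 in the 2 libraries and 1.21 (1.12 to 1.30) over both. Dusp2, Rhob, Fosl2, Atf3 and, with both ratios near 0, Hsph1 had opposite signs in the 2 libraries, for Dusp2 from -0.01 in suffix 1 to 3.40 in suffix 2. By role, 3 of 9 AP-1 genes and both feedback genes were lower and none higher, while of the heat shock genes 1 was higher (Hspa1b) and 1 lower (Hspb1). Over all genes tested 23.6% were lower and 15.8% higher. Role groups of so few genes cannot be set apart from these shares.

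A single fibroblast-like cluster had the highest sum over both libraries. Its 110 cells (79 of suffix 1 and 31 of suffix 2), led by Igfbp3, Prlr, Rasd1 and Crabp1, held a sum of 384 and 334. Over both libraries it was at 380 and the other fibroblast-like clusters ranged from 149 to 242, although 17 cells of suffix 1 in one of these were at 331. The median fibroblast-like cell held 194 and 217, the reverse order of the summed 272 and 236. In suffix 1 the 79 cells of the highest cluster held 3050225 of the 7206095 fibroblast-like UMIs, with a median of 12628 per cell. All 7 fibroblast markers were raised in this cluster, but none was among its 10 leading genes. Without this cluster the log2 macrophage over fibroblast ratio of the sum moved from -0.70 to -0.44, and the counts became 6 genes higher, against 19.1% of 13264 genes tested, and 7 lower, against 20.2%. Both shares then lay close to the background. In this cluster Nr4a1 stood at 27.1 and 23.0 against 4.24 and 5.61 in the other fibroblast-like cells. Egr3 was at 2.42 and 1.21 against 0.103 and 0.181 in the other fibroblast-like cells, and Dusp2 at 1.83 and 0.589 against 0.0192 and 0.03696 in the other fibroblast-like cells. Hspb1 was at 4.64 and 4.99 against 0.421 and 0.929 in the other fibroblast-like cells. Nr4a1, Egr3, Dusp2 and Hspb1 were thus higher in the cluster in both libraries. Klf4 (15.7 and 17.3 against 21.97 and 15.3 in the other fibroblast-like cells) and Hspa1a (1.31 and 1.27 against 1.603 and 1.62 in the other fibroblast-like cells) were not. Dusp5, Zfp36, Klf2, Dnajb1 and Hspa1b were also not higher in both libraries. The cluster was noticed by its sum, so that these values describe it and test nothing.

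**Figure D4:**
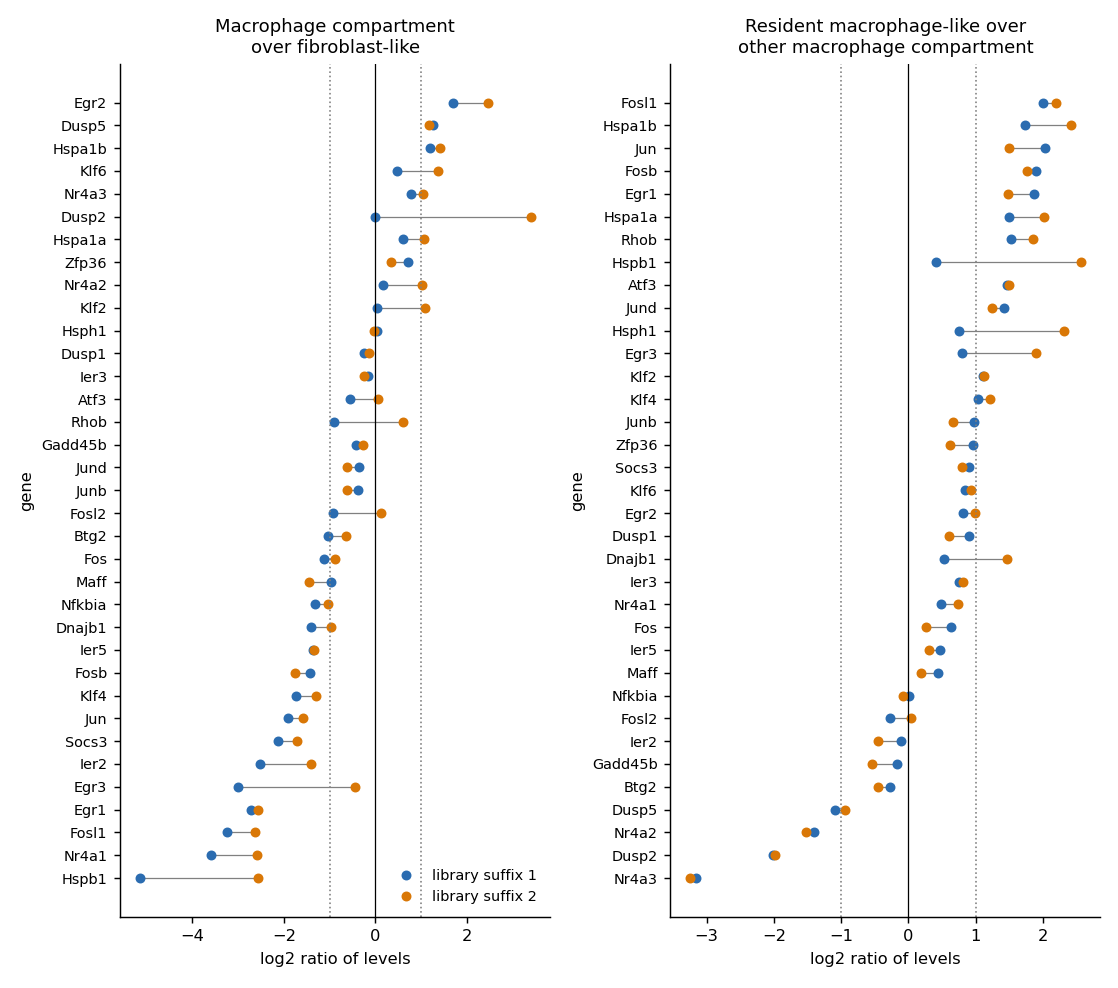
Log2 ratio of levels (x axis) of each of the 35 genes (y axis, ordered by the ratio over both libraries) for the macrophage compartment over fibroblast-like cells (left) and for resident macrophage-like cells over the rest of the macrophage compartment (right), with 1 point per library and dotted lines at 2-fold. On the left 11 genes lie below the lower line and 3 above the upper line in both libraries, and on the right 11 lie above and Nr4a2, Dusp2 and Nr4a3 below.

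The second comparison set resident macrophage-like cells against the other cells of the macrophage compartment. Here 11 of 35 genes were at least 2-fold higher in each library (Fosb, Fosl1, Jun, Jund, Egr1, Atf3, Klf2, Klf4, Hspa1a, Hspa1b and Rhob), against 6.79% of all 11759 genes tested, and 3 were lower (Nr4a2, Nr4a3 and Dusp2), against 10.2%. The median log2 ratio was 0.86 over the 35 genes and -0.05 over all genes. Higher genes were 5 of 9 AP-1, 3 of 6 EGR and KLF and 2 of 5 heat shock genes, and the lower ones came from the NR4A and DUSP groups. Fosb had log2 ratios of 1.91 and 1.76 in the 2 libraries and 1.89 (1.85 to 1.93) over both, from 19.5 and 15.5 in the resident class. For Jund they were 1.42 and 1.25 in the 2 libraries and 1.40 (1.38 to 1.43) over both, and for Hspa1b 1.74 and 2.42 in the 2 libraries and 1.93 (1.85 to 2.01) over both. The ratios of the 3 genes were above 0 in each library. Their intervals hold counting error only and do not cover the spread between libraries. Both library ratios of Hspa1b, and those of suffix 2 for Fosb and Jund, lay outside them. Nr4a3 went the other way, with -3.15 and -3.25 in the 2 libraries and -3.19 (-3.39 to -3.00) over both, as did Dusp2, with -2.01 and -1.98 in the 2 libraries and -1.99 (-2.30 to -1.71) over both. When each cell was instead given to the marker list it scored highest, 380 cells were resident macrophage-like, 358 of them the same cells, and the genes higher in each library went from 11 to 4, against 4.2% of 12491 genes.

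A smaller comparison set endothelial-like against fibroblast-like cells. Of the 35 genes, 5 were higher in each library (Egr2, Ier3, Klf2, Dusp2 and Hspb1), against 14.1% of the 12609 genes tested, and 2 were lower (Fosl1 and Nr4a1), against 14.7%. The first share lay close to its background and the second below it. Klf2 had log2 ratios of 1.83 and 2.76 in the 2 libraries and 2.25 (2.18 to 2.33) over both, and Hspb1 2.29 and 3.92 in the 2 libraries and 3.03 (2.96 to 3.10) over both.

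Between the libraries, whose ages are unknown and which were made from different mice, the sum of the macrophage compartment differed by a log2 ratio of 0.02 (suffix 1 over suffix 2), small beside the differences between cell groups. Of the 35 genes, none was 2-fold higher in suffix 1 in the macrophage compartment, where 4.31% of 11759 genes were, and 1 was 2-fold lower (Hspb1, 0.06198 against 0.192), against 1.69%. In fibroblast-like cells 5 genes were 2-fold higher in suffix 1, against 10.7% of 11747 genes, and none lower, against 6.74%. They were Dusp2 (0.787 against 0.0653), Egr3 (1.08 against 0.234), Rhob (3.43 against 1.43), Fosl2 (5.39 against 2.51) and Nr4a1 (13.9 against 6.51). All 5 were high in the Prlr and Crabp1 cluster in both libraries, Fosl2 at 10.3 and 6.97 against 1.77 and 2.27 in the other fibroblast-like cells and Rhob at 5.88 and 3.69 against 1.63 and 1.31 in the other fibroblast-like cells. The fibroblast-like cells of the libraries lay mostly in different clusters, with 143 and 2 cells in one, 17 and 183 in another and 61 and 283 in the largest, so that a library difference over the class cannot be told apart from its make-up. Without the Prlr and Crabp1 cluster the log2 library ratio of the fibroblast sum went from 0.20 to -0.29. In endothelial-like cells Nr4a3 was 2-fold higher in suffix 1 (1.62 against 0.765), against 6.19% of 9250 genes, and Hsph1 2-fold lower (0.294 against 0.592), against 2.40%. Age, mice and the preparation of each library cannot be told apart in these differences.

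Other known genes of the 2 programs, 30 immediate early and 23 heat shock genes not in the set, are given for comparison. In the macrophage compartment against fibroblast-like cells, 2 of 29 tested immediate early companions were higher (Rel and Plk2), against 15.8% of all genes, and 10 lower, against 23.6%, with a median log2 ratio of -0.66. Of 22 tested heat shock companions none was higher and 5 were lower (Bag3, Dnajb4, Hspb8, Cryab and Hspa2), close to the background, with a median of -0.29. The highest ratios were those of Rel, an NF-kB subunit (2.83), the kinase Plk2 (1.44) and the clock gene Per1 (0.91, not 2-fold in each library), and the lowest those of the matricellular genes Ccn2 (-8.00, from 7 UMIs in macrophages) and Ccn1 (-7.84) and of the chaperone Hspb8 (-7.29). In resident macrophage-like cells against the rest of the compartment, 4 of 28 tested immediate early companions were higher (Cebpd, Trib1, Klf9 and Ier5l), against 6.79% of all genes, and 3 lower (Sgk1, Bhlhe40 and Rel), close to the background of 10.2%. There 1 of 22 heat shock companions was higher (Dnajb4) and none lower. Npas4 and Hspa1l had too few UMIs to be tested in either comparison, and Ccn2 in the second.

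Depth and mitochondrial share moved with the sum, in different ways by cell group. From the lowest to the highest mitochondrial share (0 to 2.5%, 2.5 to 5%, 5 to 7.5% and 7.5 to 10%), the macrophage compartment was at 122, 146, 197 and 204 per 10000 over both libraries, with 215 in suffix 1 and 173 in suffix 2 in the last bin. Fibroblast-like cells were at 308, 240.3, 229 and 258, and resident macrophage-like cells, with too few cells in the first bin, at 274, 236 and 232. The sum of the compartment was higher in the upper bins than in the lower ones in both libraries, though the last bin of suffix 2 lay below the one before it, and it was lower in the upper bins of the resident class alone. In 4 bins of equal cell number by UMIs per cell, cut within each group so that depths differ between groups, from shallow to deep, the compartment was at 233, 206, 158 and 122, the resident class at 329, 259.7, 229 and 238 and fibroblast-like cells at 248, 259, 251 and 257. Shallow macrophage cells were thus higher, and fibroblast-like cells hardly changed. The part of depth and mitochondrial share in the differences between groups was not tested further than this.

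**Figure D5:**
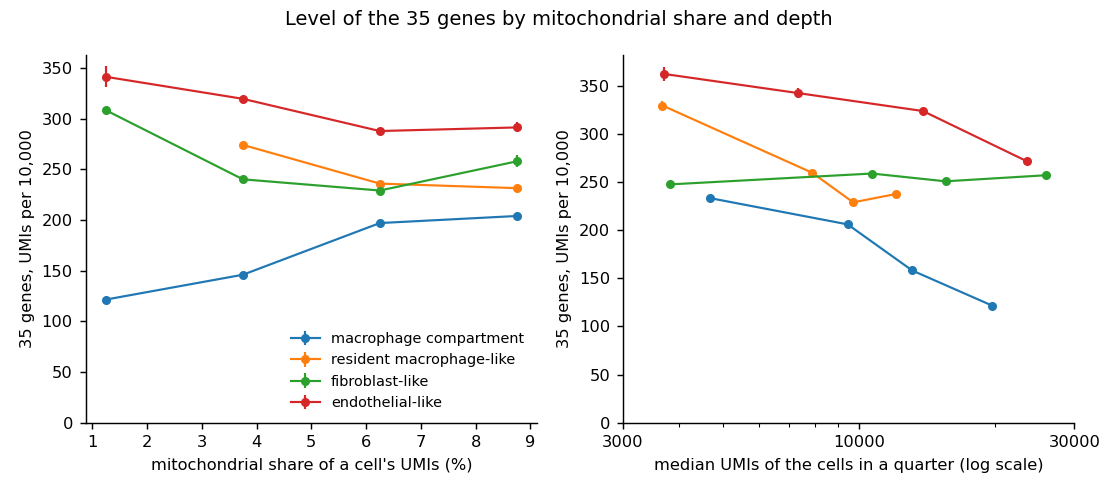
Summed level of the 35 genes (y axis, UMIs per 10000) by mitochondrial share (left, %) and by 4 bins of UMIs per cell with equal cell numbers (right, median UMIs on a log scale) in 4 cell groups, with exact 95% counting intervals, both libraries together. The macrophage compartment, over both libraries, rises to the right on the left panel and falls on the right panel, while fibroblast-like cells stay between 229 and 308 throughout.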

How the data were processed

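Per the labels and the file headers, the authors counted UMIs with Cell Ranger 4.0.0 (build mm10 in the submitters' processing notes) from 3′ droplet libraries and deposited raw UMI counts of both libraries in 1 matrix. No source used here gives the annotation or the cell calling. Cells were filtered as stated in the report, at up to 10% mitochondrial UMIs. Scrublet, run per library, called 0 and 6 doublets, so that doublets count as untreated. Free RNA was neither measured nor removed. Clustering used scanpy 1.11.5 (Python 3.11.15), 2000 variable genes without the 35 genes and their companions, 30 principal components, 15 neighbours and Leiden resolution 1 (leidenalg 0.10.2). A cluster was named from marker lists where at least 3 markers stood at 20 CPM and 2 times the median cluster, with a lead of 1 log2 unit over the next list (pseudocount 10 CPM) and no other list ahead among its 10 leading genes. This rule was chosen with the clusters in view, and a cluster that failed it stayed unnamed. The genes and lists were chosen with earlier results of these data known. UMIs were summed per group. Levels have exact 95% Poisson intervals and ratios exact binomial ones (scipy 1.17.1), both for counting error only, with a limit of 3 counts for a count of 0. The ratios and calls were run on simulated group sums with known fold changes and counting error alone. These sums held no spread between cells and no library effect, so that they cannot show how the intervals and calls behave under either. Values in every group and library are given for the most abundant gene of each role and the one with the widest range between groups, for companions the 3 highest and 3 lowest ratios. Fos, Egr1, Nr4a2, Hspa1a, Hspa1b and some values of macrophage classes were added after values were seen. Overlaps between genes come from GENCODE vM21. Alternatives changed the filter, resolution, naming, weighting, doublets, depth, total, library and call rule.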

Additional observations from a re-analysis of the deposited data

Results flagged for a closer look

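The 1020 barcodes left out for more than 10% mitochondrial UMIs, but with at least 1000 UMIs, enter no comparison above, and hold UMIs of the 35 genes. Per 10000 UMIs that are not mitochondrial, the sum was 261 (259 to 262) in these barcodes and 229.5 (229 to 230.0) in the kept cells. On the same scale the heat shock genes held 13.6 (13.3 to 14.03) against 9.08 (8.998 to 9.17). Split by mitochondrial share, the sum was 271 in 493 barcodes with 10 to 20%, 230.5 in 248 with 20 to 50% and 125 in 279 with over 50%, and in the 1483 barcodes with 5 to 10%, all of at least 1000 UMIs, it was 276. Median depth was 2837 UMIs against 10870.0 in kept cells. Cell groups were not assigned among these barcodes.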

How the results depend on the processing

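No paired analysis was possible because the labels give each age 1 library and the libraries carry no replicate number. The summed level of the 35 genes in the macrophage compartment, its heat shock sum and the log2 macrophage over fibroblast ratio of the sum were 157, 5.56 and -0.70 as reported. They became 141, 4.498 and -0.87 with at least 1000 genes, 2000 UMIs and at most 5% mitochondrial UMIs, 175, 5.89 and -0.39 with each cell assigned by its own markers, 181, 7.105 and -0.42 as means over cells, 178, 7.18 and -0.47 after thinning, 191, 6.75 and -0.64 on a total without mitochondrial and ribosomal protein genes, 158, 5.02 and -0.78 in suffix 1 and 156, 7.14 and -0.60 in suffix 2. With up to 20% mitochondrial UMIs the level was 158. Without Jund, an alternative chosen after seeing the data, the level was 136 and the ratio -0.74, and without the highest fibroblast cluster, also chosen then, the ratio was -0.44. The log2 ratio was negative under all of these. Its library counterpart in the macrophage compartment (suffix 1 over suffix 2) moved from 0.0166 to 0.0274 with up to 20% mitochondrial UMIs, 0.116 with cells assigned by their own markers, 0.0859 as a mean over cells and 0.0688 after thinning, and turned to -0.0309 without Jund. In fibroblast-like cells it turned to -0.0442 with cells assigned by their own markers and -0.29 without the highest cluster, and in resident macrophage-like cells to -0.0359 with cells assigned by their own markers. The cause was not tested. Genes higher in the macrophage compartment than in fibroblast-like cells, 3 as reported, were 5 after thinning, 9 in suffix 2 alone, 5 at 1.5-fold and 6 without the highest fibroblast cluster. Genes lower, 11 as reported, were 5 with cells assigned by their own markers and 7 without that cluster. Genes higher in the resident class, 11 as reported, were 4 with cells assigned by their own markers and 20 at 1.5-fold. The share of all genes called was not computed after thinning, in suffix 2 alone or at 1.5-fold. The counts under these 3 settings thus have no background and cannot be read as a change in the 35 genes. Of 420 recomputed log2 ratios of single genes in the first comparison 402 kept their sign, and of 385 in the second 375 did. None of the genes counted as higher or lower changed sign. Depth limits most the genes under 1 UMI per 10000 in groups of few cells, such as T-like and mast-like cells.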
